A study of Mus musculus with 36 samples.

Results

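The 39 protein-coding genes of the *Hoxa*, *Hoxb*, *Hoxc* and *Hoxd* clusters were examined in mouse tibia, out of 56246 genes in the expression table. They were taken by gene type and by symbol, a cluster letter followed by a number, a rule that uses no measured value. Hox genes encode homeodomain transcription factors that lie in 4 ordered clusters, and the order of the genes in a cluster follows the order in which they are active along the body and along the limb. Genes with low numbers pattern anterior structures, and some of them are active in blood stem and progenitor cells. Genes of groups 9 to 13 pattern the trunk, tail and limbs, and adult bone, muscle and connective tissue of a limb retain part of the Hox pattern of their origin.

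The study used bulk RNA-seq of tibiae from 36 mice at 6 months of age, of which 12 were wild-type and 24 were *LMNA* G/G, 12 of these given saline and 12 given ABE, each group holding 6 males and 6 females. *LMNA* G/G mice, given in the labels as LMNAG608G/G608G, carry 2 copies of a human bacterial artificial chromosome with the *LMNA* G608G mutation of Hutchinson-Gilford progeria syndrome and keep their own mouse *Lmna*. ABE is an adenine base editor aimed at the mutation and delivered by a pair of AAV9 vectors. Both *LMNA* G/G groups were injected retro-orbitally at postnatal day 14, with ABE or with saline, and the wild-type mice have the treatment label NT, so that genotype and injection cannot be told apart in a comparison with wild-type. Per the study's methods the epiphyses and the marrow were removed before RNA extraction. Values are in TPM, a length-corrected share of the transcripts of a library. They were rescaled here by a median ratio factor for each library (scaled TPM), which sets the typical gene to the same level in every library.

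Library totals ran from 48064068 to 116206662 reads on genes. The median ratio factor ran from 0.938 to 1.57 among wild-type libraries, from 0.835 to 1.32 among those of saline-treated mice and from 0.219 to 1.32 among those of ABE-treated mice. The lowest factor belonged to the ABE-treated female F109436, which stood apart. Without it the counts of members called higher and lower were 4 and 5 in saline-treated and 16 and 4 in ABE-treated mice against wild-type (4 and 4, and 17 and 4, with it), through *Hoxa3* and *Hoxa5*. Over all 25110 genes tested the counts without it were 6427 and 6355, and 7881 and 8195. Markers of other cells than bone moved with the groups: the summed level of 21 skeletal muscle genes had medians of 1323, 2826 and 8363 scaled TPM in the wild-type, saline and ABE groups, with ranges of 269.7 to 3993, 451.4 to 10330 and 1481 to 17500 scaled TPM. The summed level of 14 B cell genes had medians of 92.7, 51.8 and 51.5 scaled TPM, and that of 14 blood progenitor genes medians of 42.5, 29.1 and 23.0 scaled TPM. The summed level of 15 cartilage genes had medians of 149, 17.7 and 32.3 scaled TPM. Each value below is from bulk tissue, in which fewer cells of a type and less RNA per cell cannot be told apart.

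The position of the genes and the sequence before their starts came from RefSeq and GENCODE on the same build as the data, GRCm38. *Hoxa* lies on chromosome 6, *Hoxb* on chromosome 11 from 96194316 to 96368256, *Hoxc* on chromosome 15 from 102921103 to 103036852, and *Hoxd* on chromosome 2 from 74668310 to 74765142. RefSeq promoters were at hand for 22 of the 39 genes, in 24 windows. The 250 bases before the start are shown for 3 genes that stand for the 3 patterns described below: *Hoxb4* (chromosome 11, 96318017 to 96318266, plus strand), which was lower in both *LMNA* G/G groups, *Hoxa10* (chromosome 6, 52240855 to 52241104, minus strand), which was higher in ABE-treated mice, and *Hoxd13* (chromosome 2, 74667975 to 74668224, plus strand), which was near 0 in every library. Capitals mark TAAT (the core of homeodomain sites), TGACAG (the core of MEIS sites), TATAAA (the TATA box), CACGTG (the E-box) and CCAAT (the NF-Y box), each searched on both strands and marked as it reads on the printed strand.
Hoxb4: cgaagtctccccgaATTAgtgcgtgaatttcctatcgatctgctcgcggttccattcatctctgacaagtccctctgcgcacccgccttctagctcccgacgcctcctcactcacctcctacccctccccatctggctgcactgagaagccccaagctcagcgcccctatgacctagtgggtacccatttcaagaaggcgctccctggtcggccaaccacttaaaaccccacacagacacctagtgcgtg
Hoxa10: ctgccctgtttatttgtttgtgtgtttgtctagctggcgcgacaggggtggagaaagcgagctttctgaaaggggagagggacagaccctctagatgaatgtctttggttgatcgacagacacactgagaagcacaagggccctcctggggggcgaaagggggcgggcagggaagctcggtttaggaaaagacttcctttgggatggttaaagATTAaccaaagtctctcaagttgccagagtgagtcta
Hoxd13: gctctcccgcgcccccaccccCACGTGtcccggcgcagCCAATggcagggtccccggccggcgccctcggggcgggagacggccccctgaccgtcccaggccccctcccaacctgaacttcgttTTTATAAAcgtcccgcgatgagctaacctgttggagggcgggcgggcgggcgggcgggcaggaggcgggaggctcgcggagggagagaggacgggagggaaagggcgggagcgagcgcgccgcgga
*Hoxa10* has 2 windows in RefSeq, and the one shown is the outer, whose bases overlap no annotated exon. The *Hoxb4* window and this *Hoxa10* window each held 1 TAAT core, with no match to the other letters searched. The inner *Hoxa10* window held 2 TAAT, 1 CCAAT and 1 TATAAA. The *Hoxd13* window held 1 CACGTG, 1 CCAAT and, overlapping on opposite strands, 2 TATAAA. Over all 32851 promoter windows, 54.9% held TAAT, 33.8% CCAAT, 15.9% TGACAG, 12.4% TATAAA and 6.02% CACGTG. A match is a run of letters and not a bound site.

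The 39 genes were present at low levels, and the clusters differed in which part was present. *Hoxc* genes made up 45.7% of the summed mean level of the 39 genes, *Hoxa* genes 35.8%, *Hoxb* genes 13.7% and *Hoxd* genes 4.87%. *Hoxc10*, a gene of the hindlimb and lumbar region, had the highest level, with a mean of 2.46 scaled TPM over the 36 libraries and a median of 802 reads. *Hoxc6* followed at 1.05, *Hoxa6* at 0.985, *Hoxa10* at 0.930, *Hoxc9* at 0.853, *Hoxc4* at 0.826, *Hoxa5* at 0.787, *Hoxa7* at 0.783, *Hoxb4* at 0.684, *Hoxc5* at 0.681 and *Hoxa9* at 0.519 scaled TPM. These 11 genes were the ones with a mean of at least 0.5. From *Hoxc6* down to *Hoxc5* the ranges of neighbouring genes overlapped within each group, so that their order is not set beyond the spread between mice.

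The most posterior genes were split between the clusters. *Hoxa13*, a gene of the hand and foot, had medians of 0.234, 0.221 and 0.263 scaled TPM in the wild-type, saline and ABE groups, and *Hoxa11*, a gene of the middle limb segment that holds the tibia, had medians of 0.459, 0.332 and 0.332 scaled TPM. Their *Hoxd* counterparts were close to 0. *Hoxd11* reached at most 30 reads in any library, *Hoxd13* at most 11 and *Hoxd12* at most 2, with 33 of 36 libraries at 0 reads for *Hoxd12*. *Hoxd8* and *Hoxd9* were the *Hoxd* genes with the most signal, with means of 0.364 and 0.220 scaled TPM, and *Hoxd4* and *Hoxd10* had means of 0.101 and 0.0284 scaled TPM.

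Genes of groups 1 to 3, which *Hoxc* lacks in the mouse, were low in the other 3 clusters. *Hoxa3* and *Hoxb3* had means of 0.277 and 0.273 scaled TPM, *Hoxa2* and *Hoxb2* had 0.105 and 0.0871 scaled TPM, and *Hoxb1*, *Hoxd1* and *Hoxd3* were at 0.00810 or below. The limb markers were those of a hindlimb: *Pitx1*, which specifies the hindlimb, had a median of 0.656 scaled TPM in wild-type mice and *Tbx4*, its hindlimb partner, 0.108, whereas *Tbx5*, the forelimb counterpart, had 0.00624. In the plot of levels, *Hoxa* is highest from *Hoxa5* to *Hoxa10*, *Hoxc* dips at *Hoxc8*, peaks at *Hoxc10* and then drops, and *Hoxd* peaks at *Hoxd8*.

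**Figure D1:**
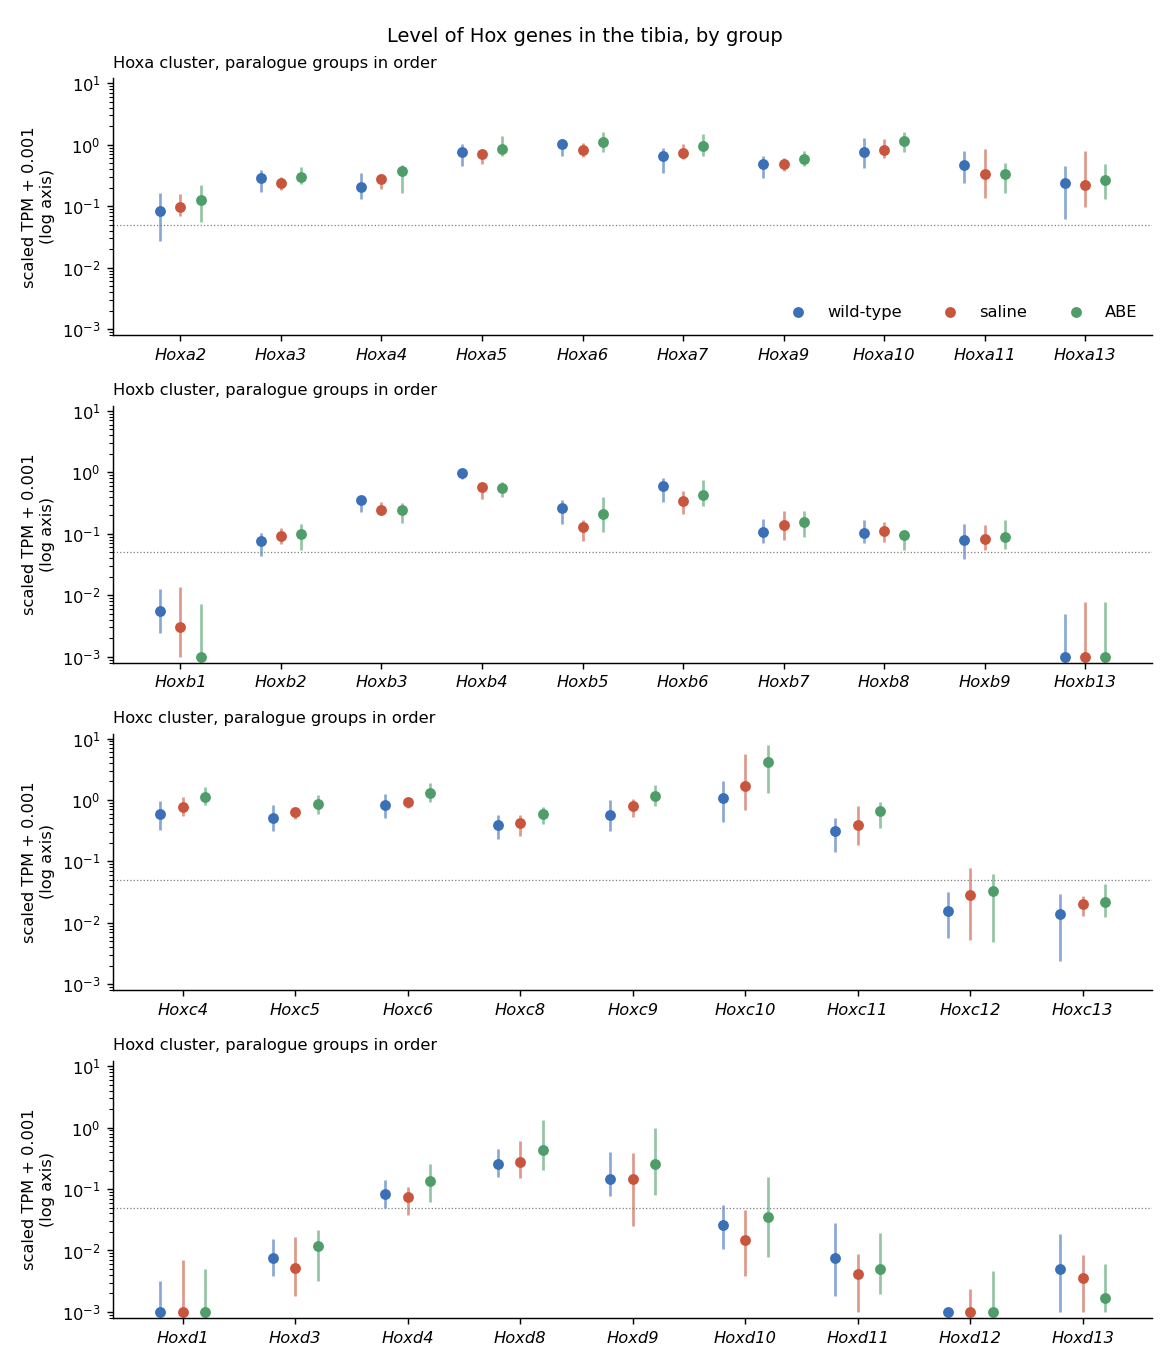
Level of Hox genes in tibiae of the 3 groups (wild-type, saline, ABE), 1 panel for each cluster with paralogue groups in order along the horizontal axis, and scaled TPM plus 0.001 on a log vertical axis. Points are the medians of 12 libraries, lines run from the lowest to the highest library, and the dotted line is the filter at a mean of 0.05; *Hoxc10* has the highest medians (1.10, 1.69 and 4.21 scaled TPM).

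Of the 39 genes, 29 had a mean of at least 0.05 scaled TPM and were tested, and each of the 29 reached that mean in all 3 groups. The 10 others were *Hoxb1*, *Hoxb13*, *Hoxc12*, *Hoxc13*, *Hoxd1*, *Hoxd3*, *Hoxd10*, *Hoxd11*, *Hoxd12* and *Hoxd13*. The highest mean among them was 0.0284 and the most reads in any library 38. Without the filter, ABE-treated mice differed from wild-type by 0.28 in *Hoxc12* and 0.20 in *Hoxc13* (adjusted p = 0.038 and 0.0072) and by -0.10 in *Hoxb1* and -0.12 in *Hoxd13* (adjusted p = 0.0062 and 0.0072). In saline-treated mice *Hoxd11* differed by -0.14 (adjusted p = 0.046). None of these 10 was called between the *LMNA* G/G groups, and all rest on at most 38 reads in a library. Unless another fit is named, p-values are from limma with sex as a covariate, adjusted by Benjamini-Hochberg over 25110 genes. Those without the filter were adjusted over 43628 genes, and fits of males alone or females alone have no sex covariate. Differences are on the scale of log2(scaled TPM + 0.05), which understates changes of low genes.

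The comparison of saline-treated *LMNA* G/G with wild-type mice asked which genes differ in the disease model without the editor. *Hoxb3*, *Hoxb4*, *Hoxb5* and *Hoxb6*, which are neighbours on chromosome 11, fell, while *Hoxa7*, *Hoxc4*, *Hoxc9* and *Hoxc10* rose. The 8 calls among 29 tested members stood beside 48.4% of all tested genes called. In total 4 members were higher and 4 lower, against 24.2% of all genes in each direction. The median difference of the 29 genes was 0.11 and that of all genes tested 0.01.

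*Hoxb4*, a regulator of blood stem cell expansion, had a lowest, median and highest level of 0.765, 0.991 and 1.11 scaled TPM in wild-type mice. In saline-treated mice these were 0.365, 0.580 and 0.670 scaled TPM. Every saline-treated library was below every wild-type library, which 3.73% of tested genes also showed for a fall. The difference was -0.77 ± 0.09 (SE; adjusted p = 9.3e-09), a 1.70-fold lower level.

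*Hoxb5*, another gene of blood stem cells, had medians of 0.265 scaled TPM (0.144 to 0.359) in wild-type and 0.128 (0.0760 to 0.170) in saline-treated mice. It fell by 0.79 on the log2 scale (adjusted p = 2.5e-05), and the groups overlapped only through 1 low male wild-type library. *Hoxb6* had medians of 0.605 (0.334 to 0.802) and 0.342 (0.209 to 0.498) scaled TPM and fell by 0.72 on the log2 scale (adjusted p = 3.9e-05). *Hoxb3* had medians of 0.355 (0.224 to 0.394) and 0.240 (0.198 to 0.326) scaled TPM and fell by 0.41 on the log2 scale (adjusted p = 0.00021). An antisense gene, *Hoxb3os*, covers 52.9% of the exon bases of *Hoxb3*, and the kit marks strand but the strand setting of the counting was not given in the sources used here.

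The fall was bounded on both sides along the cluster. *Hoxb2* differed by 0.20 (adjusted p = 0.070), *Hoxb7* by 0.21 (adjusted p = 0.17), *Hoxb8* by 0.10 (adjusted p = 0.37) and *Hoxb9* by 0.11 (adjusted p = 0.46), none of them called. Among the genes of the same groups in the other clusters, *Hoxa3* differed by -0.23 (adjusted p = 0.05004, just above the threshold), *Hoxa6* by -0.22 (adjusted p = 0.097) and *Hoxa5* by -0.08 (adjusted p = 0.60). *Hoxd4* differed by -0.15 (adjusted p = 0.41). Others lay above 0: *Hoxa4* at 0.30 (adjusted p = 0.057), *Hoxc5* at 0.21 (adjusted p = 0.17) and *Hoxc6* at 0.10 (adjusted p = 0.50). *Hoxc4* was called higher.

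The genes that rose did so less evenly. *Hoxc10* had a lowest, median and highest level of 0.440, 1.10 and 2.05 scaled TPM in wild-type mice and of 0.683, 1.69 and 5.51 in saline-treated mice, with wide overlap, and it rose by 0.95 ± 0.27 (SE; adjusted p = 0.0047). *Hoxc9* and *Hoxc4* both rose by 0.42 (adjusted p = 0.013 and 0.017) and *Hoxa7* by 0.29 (adjusted p = 0.040). In males alone the differences of *Hoxc9*, *Hoxc4* and *Hoxa7* were 0.71, 0.80 and 0.52 (adjusted p = 0.0023, 0.0019 and 0.014) and in females alone 0.12, 0.03 and 0.07 (adjusted p = 0.71, 0.95 and 0.81), and the interactions with sex were not called (adjusted p = 0.17, 0.090 and 0.24). Females alone had no member called higher, beside 8.92% of all tested genes. The call of *Hoxa7* held in 26 of 36 fits that left out 1 library (adjusted p up to 0.092). All 7 tested *Hoxc* genes lay above the median of all genes, and 3 of them were called.

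**Figure D2:**
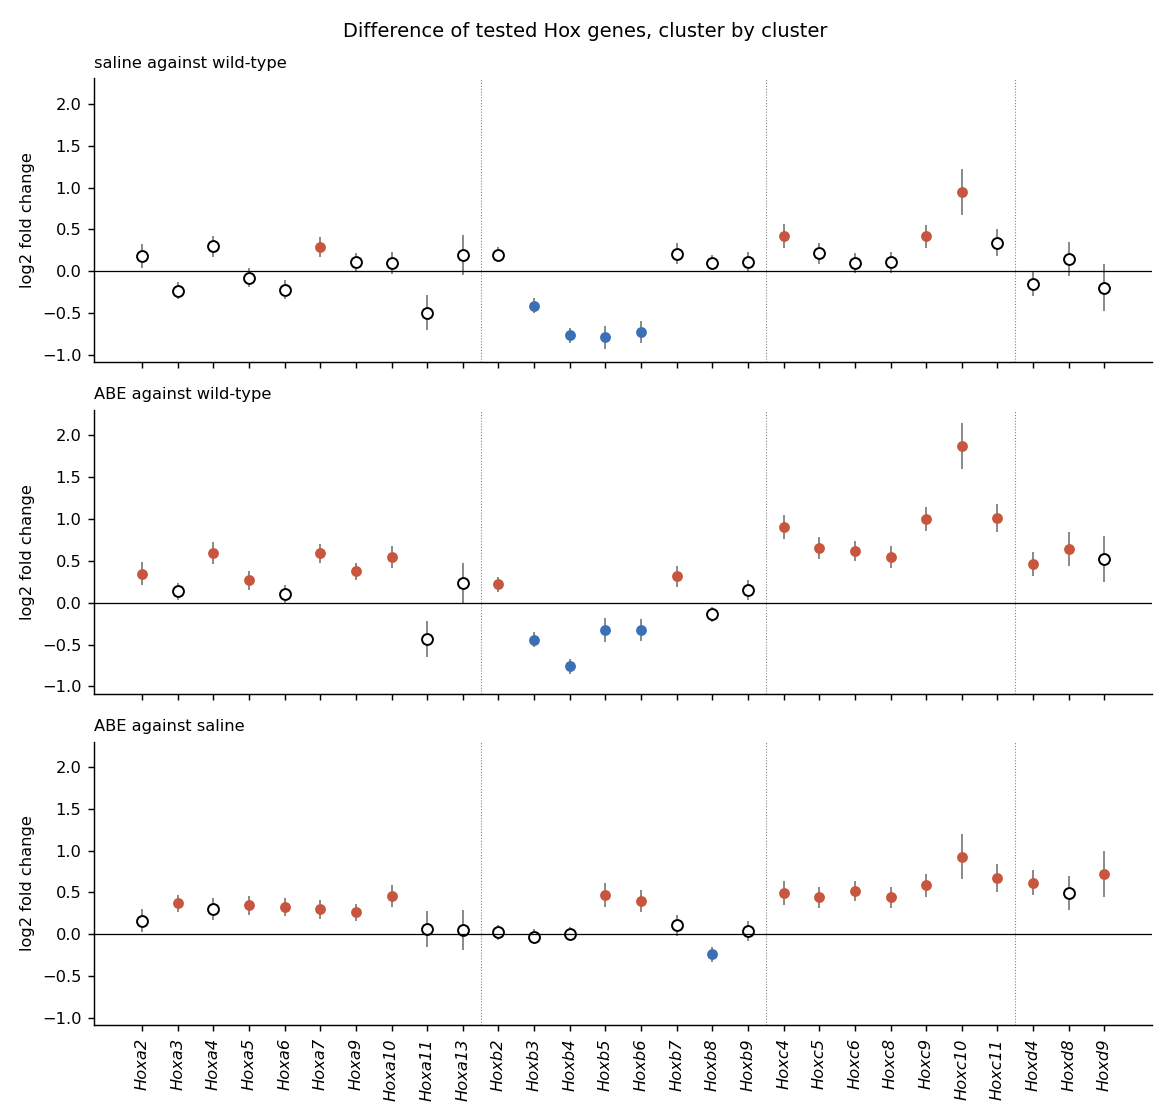
Difference of tested Hox genes in log2 units of scaled TPM + 0.05 (vertical axis, bars 1 SE) for the 3 comparisons, with the genes ordered by cluster and paralogue group. Red points rose and blue points fell at an adjusted p under 0.05, and open points were not called; *Hoxb3* to *Hoxb6* lie below 0 against wild-type in both upper panels, and on TPM as deposited *Hoxa5*, *Hoxa9*, *Hoxb2* and *Hoxb7* (ABE against wild-type) and *Hoxa5*, *Hoxa6*, *Hoxa7* and *Hoxa9* (ABE against saline) lie on the other side of 0.

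The comparison of ABE-treated *LMNA* G/G with wild-type mice asked what remained different after base editing. All 7 tested *Hoxc* genes rose, together with *Hoxa2*, *Hoxa4*, *Hoxa5*, *Hoxa7*, *Hoxa9*, *Hoxa10*, *Hoxb2*, *Hoxb7*, *Hoxd4* and *Hoxd8*, of which *Hoxa5*, *Hoxa9*, *Hoxb2* and *Hoxb7* turned negative on TPM as deposited (-0.27, -0.14, -0.10 and -0.06). *Hoxb3*, *Hoxb4*, *Hoxb5* and *Hoxb6* fell again. In total 21 of 29 members were called, 17 higher and 4 lower, beside 65.1% of all tested genes, 31.9% higher and 33.3% lower. On TPM as deposited, where the median of all genes was -0.51, the split was 3 higher and 7 lower, beside 9.29% and 54.0% of all genes. Relative to that median all 21 kept their direction.

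*Hoxc10* reached a lowest, median and highest level of 1.298, 4.21 and 7.97 scaled TPM in ABE-treated mice. It rose by 1.88 ± 0.27 (SE; adjusted p = 4.8e-07), a 3.67-fold higher level, and 1.78 without F109436, which held the highest value. *Hoxc11*, next to it, had medians of 0.314 (0.140 to 0.515) in wild-type and 0.669 (0.346 to 0.936) scaled TPM in ABE-treated mice and rose by 1.02 (adjusted p = 3.1e-06). *Hoxc9* had medians of 0.563 (0.312 to 0.9996) and 1.14 (0.788 to 1.75) scaled TPM and rose by 1.0 (adjusted p = 2.1e-07). No *Hoxc* gene had groups that did not overlap, the ranges meeting in the highest wild-type and the lowest ABE-treated libraries. Toward the anterior end of the cluster the rises were 0.55 for *Hoxc8*, 0.62 for *Hoxc6*, 0.65 for *Hoxc5* and 0.91 for *Hoxc4* (adjusted p from 1.8e-06 to 0.00036). *Hoxc10* and *Hoxc5* share 8.70% and 5.37% of their exon bases with each other on the same strand, so that some reads could count for either.

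*Hoxb4* had a lowest, median and highest level of 0.396, 0.563 and 0.685 scaled TPM in ABE-treated mice. Every ABE-treated library was below every wild-type library, as was the case for 4.58% of tested genes for a fall, and the difference was -0.76 ± 0.09 (SE; adjusted p = 6.0e-09). *Hoxb3* fell by 0.44 on the log2 scale (adjusted p = 4.6e-05). *Hoxb5* and *Hoxb6* both fell by 0.32 (adjusted p = 0.047 and 0.034), and these 2 calls held in 20 and 27 of 36 fits that left out 1 library (adjusted p up to 0.104 and 0.077). In males alone they differed by 0.046 and -0.085 (adjusted p = 0.87 and 0.72) and in females alone by -0.69 and -0.56 (adjusted p = 0.0038 and 0.012).

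Setting the ABE group against the saline group asked what differed with ABE within the same genotype. The controls received saline without AAV9, so that editing and the vector cannot be told apart. Of the 29 tested genes 17 rose and 1 fell, beside 40.6% of all tested genes called, 20.4% higher and 20.2% lower. The 7 tested *Hoxc* genes rose by 0.44 to 0.93, with *Hoxc10* at 0.93 ± 0.27 (SE; adjusted p = 0.0080) and *Hoxc6* at 0.52 with the lowest adjusted p of the cluster (adjusted p = 0.0017). *Hoxa3*, *Hoxa5*, *Hoxa6*, *Hoxa7*, *Hoxa9* and *Hoxa10* rose by 0.26 to 0.46, of which *Hoxa5*, *Hoxa6*, *Hoxa7* and *Hoxa9* turned negative on TPM as deposited (-0.01, -0.03, -0.06 and -0.08). *Hoxd4* rose by 0.62 (adjusted p = 0.0023) and *Hoxd9* by 0.72 (adjusted p = 0.038). The one that fell was *Hoxb8*, by 0.24 (adjusted p = 0.036). None of the 29 genes had groups that did not overlap, which 0.0319% of all tested genes showed.

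The 4 *Hoxb* genes split in this comparison. *Hoxb5* rose by 0.47 (adjusted p = 0.0093), with a median of 0.213 scaled TPM (0.105 to 0.393) in ABE-treated mice between those of saline-treated and wild-type mice. *Hoxb6* rose by 0.40 (adjusted p = 0.018), with a median of 0.428 (0.286 to 0.763) scaled TPM that also lay between. *Hoxb4* differed by 0.01 (95% confidence interval -0.17 to 0.18, adjusted p = 0.97) and *Hoxb3* by -0.03 (-0.21 to 0.15, adjusted p = 0.83). In males alone *Hoxb5* and *Hoxb6* differed by 0.71 and 0.73 (adjusted p = 0.021 and 0.014) and in females alone by 0.23 and 0.07 (adjusted p = 0.33 and 0.79), where the *Hoxb6* median was 0.395 scaled TPM with saline and 0.369 with ABE. *Hoxb4* differed by 0.23 in males and -0.22 in females (adjusted p = 0.17 and 0.12), and no interaction with sex was called (adjusted p = 0.41, 0.24 and 0.20 for *Hoxb5*, *Hoxb6* and *Hoxb4*). The intervals of all mice leave out a return of *Hoxb4* by the 0.77 by which it had fallen. Without F109436, 14 genes rose and none was called lower, the calls of *Hoxa7*, *Hoxa9*, *Hoxd9* and *Hoxb8* being lost. Of all 25110 genes tested, 4461 were then called higher and 4296 lower. With TPM as deposited, where the median of all genes was -0.33, none was called higher and 1 lower, beside 3.23% and 33.6% of all genes.

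**Figure D3:**
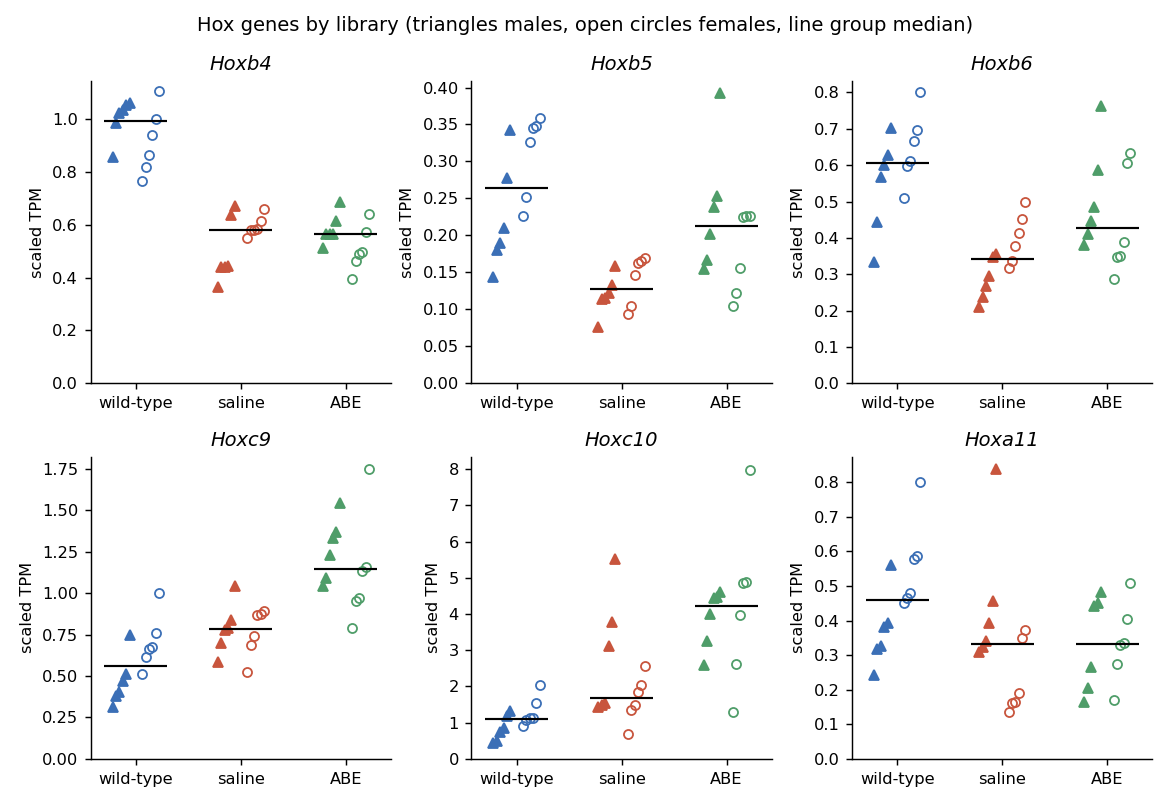
Scaled TPM (vertical axis from 0) of 6 Hox genes in each of 36 libraries, by group, with filled triangles for males, open circles for females and a line at the group median. All 12 saline-treated and all 12 ABE-treated values of *Hoxb4* lie under the lowest wild-type value of 0.765 scaled TPM, and the *Hoxc10* values spread widely within each group.

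Genes of groups 9 to 13, here called the limb groups, were compared with 8 Hox genes of lower groups that are active in blood cells, *Hoxa4*, *Hoxa5*, *Hoxa7*, *Hoxb2*, *Hoxb3*, *Hoxb4*, *Hoxb5* and *Hoxb6*. The sets were fixed by group number and by a list. Whether limb-group genes are also active in blood cells was not tested, so that the sets need not separate the 2 tissues. Of the 16 limb-group genes 9 were tested. Against wild-type, 2 of the 9 rose and none fell in saline-treated mice, and 5 rose and none fell in ABE-treated mice, where all tested genes gave 24.2% in each direction, and 31.9% higher and 33.3% lower. Of the 8 blood-associated genes, 1 rose and 4 fell in saline-treated mice, and 4 rose and 4 fell in ABE-treated mice. The medians of the differences were 0.11 and -0.24 for the 2 sets in saline-treated mice and 0.52 and -0.05 in ABE-treated mice, beside 0.01 and -0.02 for all genes tested. Within the blood-associated set *Hoxb3* to *Hoxb6* fell, and *Hoxa4*, *Hoxa5*, *Hoxa7* and *Hoxb2* rose in ABE-treated mice (*Hoxa5* and *Hoxb2* turned negative on TPM as deposited).

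For each library the mean of log2(scaled TPM + 0.05) was taken over the 9 limb-group and over the 8 blood-associated genes. The limb mean minus the blood mean had a lowest, median and highest value of -0.47, -0.08 and 0.45 in wild-type libraries. It had -0.41, 0.32 and 1.15 in saline-treated and 0.09, 0.45 and 0.98 in ABE-treated libraries. The 3 groups overlapped. All 12 ABE-treated libraries had a limb mean above the blood mean, as did every saline-treated library but F309418. Wild-type libraries lay on both sides of 0. The 2 means are of different genes, so that a value of 0 has no meaning of its own. The blood mean had medians of -1.21, -1.48 and -1.21 in the wild-type, saline and ABE groups, and the limb mean medians of -1.24, -1.20 and -0.69.

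**Figure D4:**
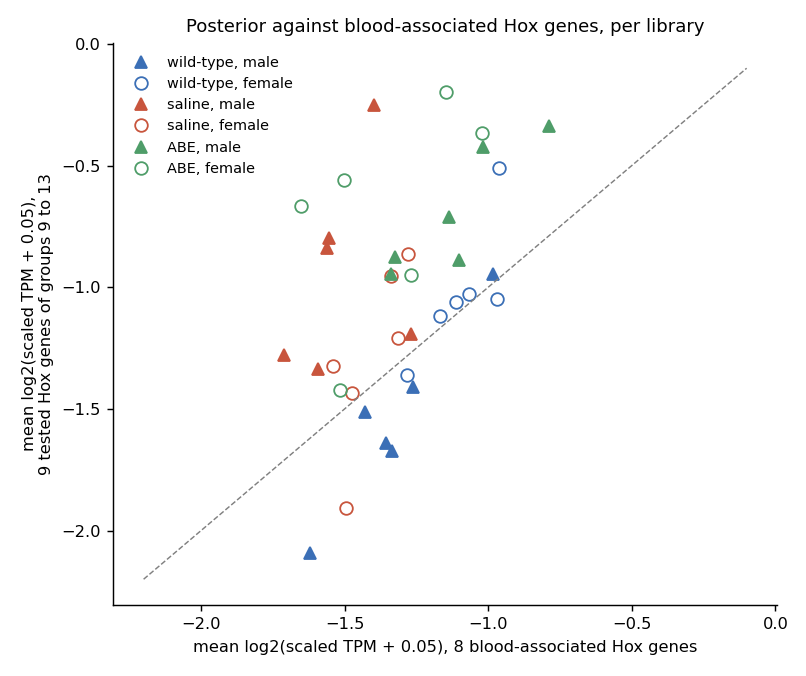
Mean log2(scaled TPM + 0.05) of 9 tested Hox genes of groups 9 to 13 (vertical axis) against that of 8 blood-associated Hox genes (horizontal axis), 1 point for each of 36 libraries, with the dashed line where both are equal. All 12 ABE-treated libraries and all saline-treated libraries but F309418 lie above the line, with wild-type libraries on both sides. The median of the vertical minus the horizontal value is -0.08, 0.32 and 0.45 in the wild-type, saline and ABE groups.

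The level of several posterior genes ran with that of skeletal muscle genes from library to library. *Hoxc10* and the mean log2 level of the 21 muscle genes had a Pearson correlation of 0.974 within the 12 wild-type libraries, 0.975 within the 12 saline-treated and 0.979 within the 12 ABE-treated libraries. Spearman's rho was 0.965, 0.944 and 0.867. *Hoxc10* and *Hoxb4* are shown as the members at the upper and lower end of this correlation, so that their values are a description with no test. Without the 2 libraries farthest from the median muscle level the Pearson values were 0.963, 0.962 and 0.953. *Hoxc11* had 0.894, 0.917 and 0.852, and these 2 genes were the members above 0.8 in all 3 groups, as were 4.34% of all tested genes. *Hoxc9* ranged over the groups from 0.753 to 0.868 and *Hoxa10* from 0.742 to 0.883, and 23 of the 29 genes were positive in all 3 groups, beside 27.6% of all tested genes.

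*Hoxb4* was the one member with a negative correlation to the muscle genes in all 3 groups, at -0.277, -0.701 and -0.554, as were 33.1% of all tested genes. Its rho was -0.014, -0.671 and -0.755. Without the 2 farthest libraries r was -0.107, -0.508 and -0.495. *Hoxb5* and *Hoxb6* had 0.820 and 0.831 within wild-type libraries but -0.08 and -0.08 within saline-treated and 0.03 and 0.14 within ABE-treated libraries; the difference between groups was not tested.

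**Figure D5:**
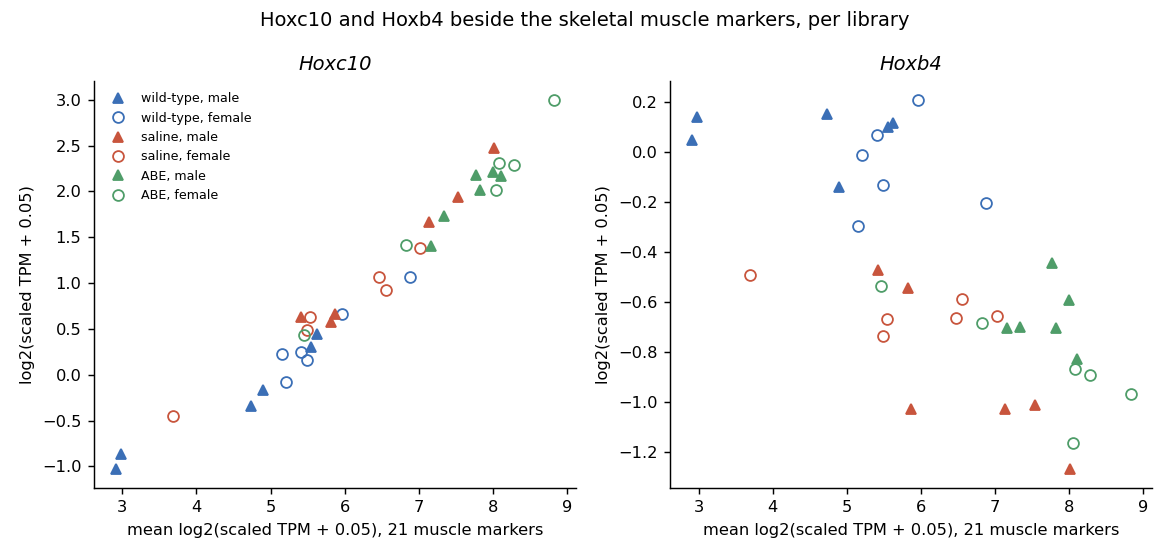
Log2(scaled TPM + 0.05) of *Hoxc10* (left, vertical axis) and *Hoxb4* (right, vertical axis) against the mean log2(scaled TPM + 0.05) of 21 skeletal muscle genes (horizontal axes), 1 point for each of 36 libraries. The *Hoxc10* values rise with the muscle mean within each of the 3 groups (r of 0.974, 0.975 and 0.979), whereas at a given muscle level *Hoxb4* is higher in wild-type than in the other libraries.

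With the muscle mean of each library as a covariate, *Hoxc10* differed by 0.24 in saline-treated (adjusted p = 0.011) and by 0.29 in ABE-treated mice (adjusted p = 0.027) against wild-type, down from 0.95 and 1.88, and by 0.05 between the *LMNA* G/G groups (adjusted p = 0.75). *Hoxc9* kept 0.33 in ABE-treated against wild-type mice (adjusted p = 0.034). No member was called in either direction between ABE-treated and saline-treated mice in that fit, in which 3.37% of all genes were called. The 4 *Hoxb* genes were still called lower in that fit: *Hoxb4* differed by -0.65 and -0.49 (adjusted p = 1.3e-07 and 0.00079), *Hoxb5* by -0.90 and -0.57 (adjusted p = 1.4e-05 and 0.031), *Hoxb6* by -0.82 and -0.55 (adjusted p = 2.2e-05 and 0.027) and *Hoxb3* by -0.42 and -0.45 (adjusted p = 0.00075 and 0.0081) in saline-treated and ABE-treated mice against wild-type. *Hoxa11*, not called without the covariate, fell by 0.85 and 1.23 on the log2 scale (adjusted p = 0.00037 and 0.00029), and *Hoxa13* fell by 0.83 in ABE-treated mice (adjusted p = 0.0068). In all, 1 member was called higher and 9 lower in saline-treated mice, beside 42.5% of all genes called, and 2 higher and 6 lower in ABE-treated mice, beside 28.4%.

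The markers of blood cells also moved with the groups, but not all in the same direction. The summed level of 15 neutrophil genes had medians of 1639, 2789 and 1723 scaled TPM in the wild-type, saline and ABE groups. Those of erythroid genes were 311, 355 and 168 scaled TPM, and those of macrophage genes 74.6, 79.0 and 51.6 scaled TPM. Of 14 blood progenitor genes 9 were lower and 1 higher in saline-treated against wild-type mice, and 10 lower and 3 higher in ABE-treated mice, with 4 and 5 of them below every wild-type library. All tested genes gave 24.2% and 33.3% lower, and 3.73% and 4.58% lower without overlap. *Flt3*, a receptor of lymphoid and multipotent progenitors, had medians of 0.534, 0.226 and 0.156 scaled TPM in the wild-type, saline and ABE groups, and *Kit*, the stem cell factor receptor, 1.93, 1.34 and 0.865. Those called higher in ABE-treated mice were *Mecom*, *Hlf* and *Cd34*, by 1.07, 0.56 and 0.35 (adjusted p = 4.1e-08, 0.00047 and 0.012). In saline-treated mice *Mecom* rose by 0.34, *Cd34* fell by 0.37 and *Hlf* was not called (adjusted p = 0.037, 0.012 and 0.94). With the neutrophil, B cell and erythroid means as covariates, *Hoxb4* differed by -0.77 and -0.69 (adjusted p = 0.00035 and 0.00021), and it was then the only member called in saline-treated mice, beside 23.5% of all genes called. With the blood progenitor mean as a covariate, chosen after seeing the data, it differed by -0.55 (adjusted p = 0.0013) and by -0.46 (adjusted p = 0.063), so that the second call was lost. In the same fit *Hoxc10* turned to -0.44 in saline-treated (adjusted p = 0.27) and -0.03 in ABE-treated mice (adjusted p = 0.98). Markers of periosteum and tendon also moved, with a median summed level of 29.5, 35.0 and 80.1 scaled TPM, and with their mean as a covariate, also chosen after seeing the data, *Hoxc10* differed by 0.02 between ABE-treated and saline-treated mice (adjusted p = 0.97), whereas *Hoxb4* differed by -0.79 and -0.59 from wild-type (adjusted p = 3.8e-10 and 4.8e-06). *Meis1* is in both the progenitor list and the cofactor list below.

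The cofactors that bind DNA with Hox proteins, of the PBX, MEIS and PREP families, gave 8 tested genes of 9. Against wild-type 2 rose and 4 fell in saline-treated, and 1 rose and 4 fell in ABE-treated mice, beside 24.2% of all genes in each direction, and 31.9% higher and 33.3% lower. *Pbx2* had the highest level, with medians of 4.70, 3.69 and 2.99 scaled TPM, and fell by 0.33 and 0.58 on the log2 scale (adjusted p = 0.00013 and 7.5e-09). *Meis1*, a partner of Hox proteins in blood progenitors, had medians of 0.522, 0.340 and 0.272 scaled TPM and fell by 0.56 and 0.76. *Pknox2* was the exception and rose by 0.66 and 1.23, with medians of 0.271, 0.465 and 0.705 scaled TPM. *Meis3* and, in ABE-treated mice, *Pbx3* were not called against wild-type.

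Of 19 limb identity genes 12 were tested. Against wild-type 7 rose and none fell in saline-treated mice, and 10 rose and none fell in ABE-treated mice, with a median difference of 0.51 and 0.77, beside 24.2% and 31.9% of all genes higher. *Tbx15*, a T-box gene of limb mesenchyme and fast muscle fibers, had medians of 2.42, 5.45 and 12.2 scaled TPM and rose by 1.19 and 2.16. *Zbtb16*, a zinc finger gene that acts upstream of Hox genes in the limb, had medians of 2.74, 5.58 and 9.87 scaled TPM and rose by 1.10 and 1.93. *Shox2*, a regulator of proximal limb bones, rose by 0.82 and 0.86, and *Prrx1*, a gene of limb mesenchyme and periosteum, by 0.38 and 1.0. *Pitx1* differed by -0.21 in saline-treated mice (adjusted p = 0.21) and rose by 0.44 in ABE-treated mice (adjusted p = 0.0063).

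Males and females were also compared for the saline-treated against wild-type difference. The interaction with sex called none of the 29 genes (limma, Benjamini-Hochberg; 1.02% of all genes were called), and 11 of 29 had an unadjusted p under 0.05, beside 21.3% of all tested genes. *Hoxa11* came closest (adjusted p = 0.053). Its levels in males were 0.241 to 0.561 scaled TPM in wild-type and 0.308 to 0.839 in saline-treated mice, with medians of 0.354 and 0.367. In females they were 0.452 to 0.802 and 0.135 to 0.373, with medians of 0.530 and 0.178, so that the 2 female groups of 6 did not overlap. The female groups of *Hoxb3*, *Hoxb4*, *Hoxb5* and *Hoxb6* did not overlap either, and how many of all tested genes showed this was not counted. Without F109436, an ABE-treated library that enters the shared spread, *Hoxa11* and *Hoxa9* passed the interaction test. *Hoxc10* had medians of 0.789 and 2.33 scaled TPM in wild-type and saline-treated males and 1.13 and 1.67 in females, with differences of 1.60 (adjusted p = 0.0012) and 0.29 (adjusted p = 0.65), and its interaction was not called (adjusted p = 0.15). *Hoxb4* fell in both sexes, by 0.96 in males and 0.57 in females on the log2 scale. For ABE-treated against saline-treated mice the interaction also called none of the 29 genes (0.0558% of all genes were called), with 7 at an unadjusted p under 0.05, beside 13.9% of all tested genes.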

How the data were processed

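Tibial RNA was sequenced as strand-specific, poly(A)-selected libraries. Per the study's methods and labels, the authors aligned reads to GRCm38 with STAR (2.73a in the labels) and counted GENCODE genes with QoRTs, and they deposited TPM for 56246 genes in 36 libraries. The strand setting of the counting is not given in the sources used here. TPM were divided by median ratio factors over 23632 genes above 0 in every library. Genes with a mean of at least 0.05 scaled TPM were tested on log2(scaled TPM + 0.05) with limma (version 3.58.1, R 4.3.3, trended prior), with group and sex in 1 fit of all libraries. A difference was called at a Benjamini-Hochberg adjusted p under 0.05. Reads per gene were recovered from the TPM steps (100% of values whole within 0.01) and tested with limma-voom as an alternative. Samples are separate mice by their labels. Coordinates are from GENCODE vM21, in which all 39 gene identifiers matched with their versions, and promoters from RefSeq (GRCm38.p6). Hox genes with a mean of at least 0.5 scaled TPM or called in any comparison could be described singly, and list genes if called with such a mean or most abundant in their list. Members and lists were chosen with earlier results of these data known. Hox genes outside that rule (*Hoxa11*, *Hoxa13*, *Hoxb9* and those under the filter) are described for completeness, and list genes outside it (*Flt3*, *Mecom*, *Meis1*, *Meis3*, *Tbx4*, *Tbx5*, *Halr1*, *Hoxa11os* and *Hoxb3os*) were named after their values were seen. Some genes are included in the counts and sums but are not reported singly here. The fit was tested on simulated data.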

Additional observations from a re-analysis of the deposited data

How the results depend on the processing

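No paired analysis was possible because the labels give the groups no shared replicate numbers. *Hoxb4* was called lower in saline-treated against wild-type mice under 19 of 19 alternatives and in 36 of 36 fits that left out 1 library, and in ABE-treated mice under 18 of 19 and in 36 of 36. No Hox gene called in a comparison turned its direction when 1 library was left out.

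The count of called Hox genes in saline-treated against wild-type mice (8) was 15 in males, 14 with array weights, 1 with blood covariates and 5 with the cartilage covariate. In ABE-treated against wild-type mice (21) it was 10 on TPM as deposited, 9 in females, 8 with the muscle covariate, 8 with blood covariates, 13 with the periosteum and tendon covariate and 1 with the blood progenitor covariate. In ABE-treated against saline-treated mice (18) it was 1 on TPM as deposited, 9 in males, 4 in females, 0 with the muscle covariate, 0 with blood covariates, 3 with cartilage, 2 with periosteum and tendon, 2 with blood progenitors and 5 with endothelial markers. Each of these fits tested 29 Hox genes. A minimum mean of 0.5 left 11 Hox genes to test, of which 5, 10 and 10 were called in the 3 comparisons. Over all genes, limma-voom at a minimum of 0.25 per 10000 reads left 6783 genes to test instead of 25110. In the first comparison it called 3996 of them (58.9%, against 48.4% of the 25110). The 12154 calls of the first comparison became 6926 on TPM as deposited, 5030 in females, 5906 with blood covariates and 7170 with cartilage. They became 12504 in males (49.8%), and 7383 higher and 7135 lower with array weights. At the minimum mean of 0.5 they were 4498 higher and 3792 lower of 15902 genes. In the second comparison limma-voom with that minimum called 5385 of 6783 genes (79.4%, against 65.1% of the 25110). The 16357 calls of the second became 7142 with muscle, 9195 with blood and 2234 with blood progenitors. They became 15996 on TPM as deposited, 12270 in females and 12280 with periosteum and tendon, and 5548 higher and 5599 lower at the minimum of 0.5. In the third comparison limma-voom with that minimum called 4132 of 6783 genes (60.9%, against 40.6% of the 25110). The 10201 calls of the third became 4453 in males, 5644 in females, 845 with muscle, 1300 with blood and 3286 with cartilage. They became 344 with periosteum and tendon, 2938 with blood progenitors and 4647 with endothelial markers. They became 9299 on TPM as deposited, and 3622 higher and 4057 lower at the minimum of 0.5. That limma-voom minimum left no Hox gene to test. The interaction of sex and saline treatment called 2 Hox genes without F109436 and 1 with limma-voom, against 0. Over all genes it called 373 higher and 297 lower without F109436, and 314 higher and 183 lower with limma-voom.

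Directions turned for these genes. On TPM as deposited, ABE-treated against wild-type gave -0.14 for *Hoxa9*, -0.27 for *Hoxa5*, -0.057 for *Hoxb7* and -0.10 for *Hoxb2*, and against saline-treated -0.082 for *Hoxa9*, -0.064 for *Hoxa7*, -0.0095 for *Hoxa5* and -0.033 for *Hoxa6*. In ABE-treated against wild-type mice, males alone gave 0.046 for *Hoxb5*, and females alone -0.0059 for *Hoxa2* and -0.0039 for *Hoxa5*. The muscle covariate gave -0.10 for *Hoxa10*, -0.11 for *Hoxd8*, -0.019 for *Hoxa9* and *Hoxa5*, -0.023 for *Hoxb7* and -0.039 for *Hoxd4*. The periosteum and tendon covariate, against saline-treated, gave -0.0092 for *Hoxa10*, -0.0031 for *Hoxa9* and -0.12 for *Hoxd9*. The blood progenitor covariate gave, in saline-treated against wild-type, -0.44 for *Hoxc10*, -0.18 for *Hoxc9*, -0.24 for *Hoxa7* and -0.13 for *Hoxc4*. In ABE-treated against wild-type it gave -0.24 for *Hoxa10*, -0.14 for *Hoxa4*, *Hoxd8*, *Hoxa9* and *Hoxa7*, -0.056 for *Hoxc11*, -0.058 for *Hoxb2*, -0.028 for *Hoxc10*, -0.15 for *Hoxa5* and -0.30 for *Hoxd4*. The covariates other than muscle and blood were added after seeing the data, and the cause of each change was not tested. Members under about 100 reads have wide counting error, and muscle, blood and periosteum levels cannot be told apart from group in these libraries.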

Other observations

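Regulators of Hox chromatin, which were not described above, included 27 tested genes of 30, of the Trithorax (MLL) and Polycomb groups and their relatives. Against wild-type, 4 rose and 9 fell in saline-treated mice, and 8 rose and 13 fell in ABE-treated mice, with a median difference of -0.06 and -0.12 beside 0.01 and -0.02 for all genes tested. Of all genes 24.2% rose and 24.2% fell in the first comparison, and 31.9% rose and 33.3% fell in the second. *Kmt2a*, the MLL histone methyltransferase that maintains Hox expression, had medians of 4.97, 3.87 and 4.40 scaled TPM in the wild-type, saline and ABE groups, falling by 0.36 and 0.20 on the log2 scale. *Kmt2b*, its relative, fell by 0.51 and 0.56. *Bmi1*, a Polycomb gene, rose by 0.56 and 0.81, with medians of 1.51, 2.19 and 2.61 scaled TPM. *Ezh2*, the Polycomb methyltransferase, was called in ABE-treated mice alone, where it fell by 0.78, and differed by -0.30 in saline-treated mice (limma, adjusted p = 0.12).

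Noncoding genes of the clusters were at the edge of detection. Of the 11 measured, 4 were tested, and only *Halr1* was called: it rose by 0.53 and 0.88 on the log2 scale against wild-type, with medians of 0.0248, 0.0608 and 0.0758 scaled TPM. *Hoxa11os*, which overlaps 35.0% of the *Hoxa11* exon bases on the opposite strand, had medians of 0.0814, 0.0707 and 0.0884 scaled TPM, and *Hoxb3os* 0.0965, 0.0756 and 0.0998.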
